A study of Mus musculus with 32 samples.

Results

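The genes described here encode subunits and partners of the NADPH oxidases together with the Rac GTPases that help to switch some of these enzymes on. They were found by matching the gene symbol in the array's probe annotation to Cyba, Cybb, Ncf4, Noxa1, Noxo1, Poldip2, Rac1 and Rac2. The match gave 8 of 17053 genes and 11 of 20794 probes, with 3 probes for Poldip2, 2 for Rac1 and 1 for each other gene. RNA came from brain, kidney, muscle and pancreas of 4 male C57BL/6 mice aged 17 weeks that lack both copies of Nox4 (genotype -/-), and all 4 tissues came from the same animals. Each tissue RNA was hybridised on 2 cDNA arrays with the dyes Cy5 and Cy3 exchanged, against a pool of wild-type RNA from C57BL/6 males that were also 17 weeks old. It holds 4 wild-type animals per the design text and 6 control animals per the labelling protocol, so its size is not settled. How the Nox4 allele was made is not given in the sources used here. No named probe carries the symbol Nox4, so the deleted gene could not be read as a check of the labels.

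NADPH oxidases carry electrons from NADPH across a membrane to oxygen and so make superoxide or hydrogen peroxide. In the phagocyte enzyme the catalytic subunit gp91phox (Cybb) is held by p22phox (Cyba) and becomes active when the cytosolic subunits p47phox, p67phox and p40phox (Ncf4) and a Rac GTPase join it. Nox1 uses Noxo1 and Noxa1 in place of p47phox and p67phox, whereas Nox4 needs p22phox but no cytosolic subunit, and the p22phox-binding protein Poldip2 is known to raise Nox4 activity in vascular smooth muscle. Rac1 is found in most cells and Rac2 mainly in blood cells.

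Cyba, Cybb and Poldip2 are shown by their promoters because p22phox joins gp91phox and also binds the Poldip2 protein. A further reason is that the means of their arrays differed by dye orientation, as described below. That gap passed the adjusted threshold for Cyba and Poldip2 but not for Cybb. Each window runs from 250 bases before to 50 bases after the gene's start and is taken from RefSeq (assembly GRCm38.p6). Cyba lies on the minus strand at chr8:122432891-122433190, Cybb on the minus strand at chrX:9469275-9469574 and Poldip2 on the plus strand at chr11:78512046-78512345, and all are written 5′ to 3′ along the gene. Capitals mark the PU box GAGGAA, the CCAAT box CCAAT and the GC box GGGCGG, searched on both strands.
Cyba: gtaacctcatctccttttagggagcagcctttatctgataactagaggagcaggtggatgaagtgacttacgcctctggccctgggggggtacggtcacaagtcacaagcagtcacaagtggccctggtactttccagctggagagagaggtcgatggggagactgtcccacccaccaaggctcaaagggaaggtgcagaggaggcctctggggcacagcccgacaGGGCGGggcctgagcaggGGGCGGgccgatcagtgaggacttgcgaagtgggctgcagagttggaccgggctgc
Cybb: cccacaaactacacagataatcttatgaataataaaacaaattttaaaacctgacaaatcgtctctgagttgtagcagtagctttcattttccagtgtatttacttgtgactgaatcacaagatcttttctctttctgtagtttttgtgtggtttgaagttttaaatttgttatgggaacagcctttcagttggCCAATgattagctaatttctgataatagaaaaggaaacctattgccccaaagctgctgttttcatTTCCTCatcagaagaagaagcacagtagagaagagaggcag
Poldip2: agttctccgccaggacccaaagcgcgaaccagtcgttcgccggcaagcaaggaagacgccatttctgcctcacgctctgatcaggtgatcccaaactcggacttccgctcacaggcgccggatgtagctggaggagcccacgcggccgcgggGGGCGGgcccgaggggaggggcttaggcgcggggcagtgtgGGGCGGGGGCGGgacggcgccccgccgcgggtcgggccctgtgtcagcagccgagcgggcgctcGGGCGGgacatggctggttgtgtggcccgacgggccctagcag

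The Cyba window held 2 GC boxes and the Poldip2 window 4, a pair of which adjoin each other in one run of capitals. The Cybb window held no GC box but 1 CCAAT box upstream of the start and 1 PU box on the opposite strand (read as TTCCTC above). GC content was 60.7% for Cyba, 72.0% for Poldip2 and 35.3% for Cybb. Of the other genes, 2 had a window in the table: Noxo1 (80.3% GC) held 3 GC boxes and Noxa1 (52.0% GC) held 1 CCAAT box. Over all 32851 windows of this length in the table, 35.7% held a GC box, 37.4% a CCAAT box and 28.3% a PU box. These matches describe letters only and do not show that a factor binds.

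The deposited values are log2 ratios that, from the design text and the dye labels, likely run knockout over pool. If they run the other way, higher and lower swap throughout. A value of an animal is the mean of its 2 dye-swapped arrays. The arrays held 19815 to 20684 values each, with medians between −0.07 and 0.05. The 2 arrays of an animal correlated across genes at r between −0.58 and 0.06, whereas within a tissue those of equal dye orientation had r between 0.03 and 0.48. The mean of each orientation is therefore given with each gene. Of the 8 genes only Cybb lacked a value, on 1 pancreas array of animal 1, and limma then took 3 pancreas animals for it. The files hold ratios and no levels, so neither the abundance of a transcript nor the markers of a tissue could be checked, and fewer cells of a type cannot be told apart from less RNA per cell.

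None of the 32 combinations of gene and tissue passed an adjusted p of 0.05 (limma, Benjamini-Hochberg over all genes). The same held for all other genes, with 0% called of 16729 genes (brain), 16825 (kidney), 16662 (muscle) and 16377 (pancreas). At an unadjusted p under 0.05, limma gave 2 of the 32, which were Rac2 in kidney and in muscle. Over all genes that unadjusted share was 4.13% (brain), 9.28% (kidney), 7.29% (muscle) and 2.91% (pancreas). By tissue, the 8 genes had median log2 ratios of 0.01 (brain), −0.02 (kidney), −0.10 (muscle) and −0.05 (pancreas), against 0.01, 0.00, −0.02 and 0.00 over all genes tested there.

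**Figure D1:**
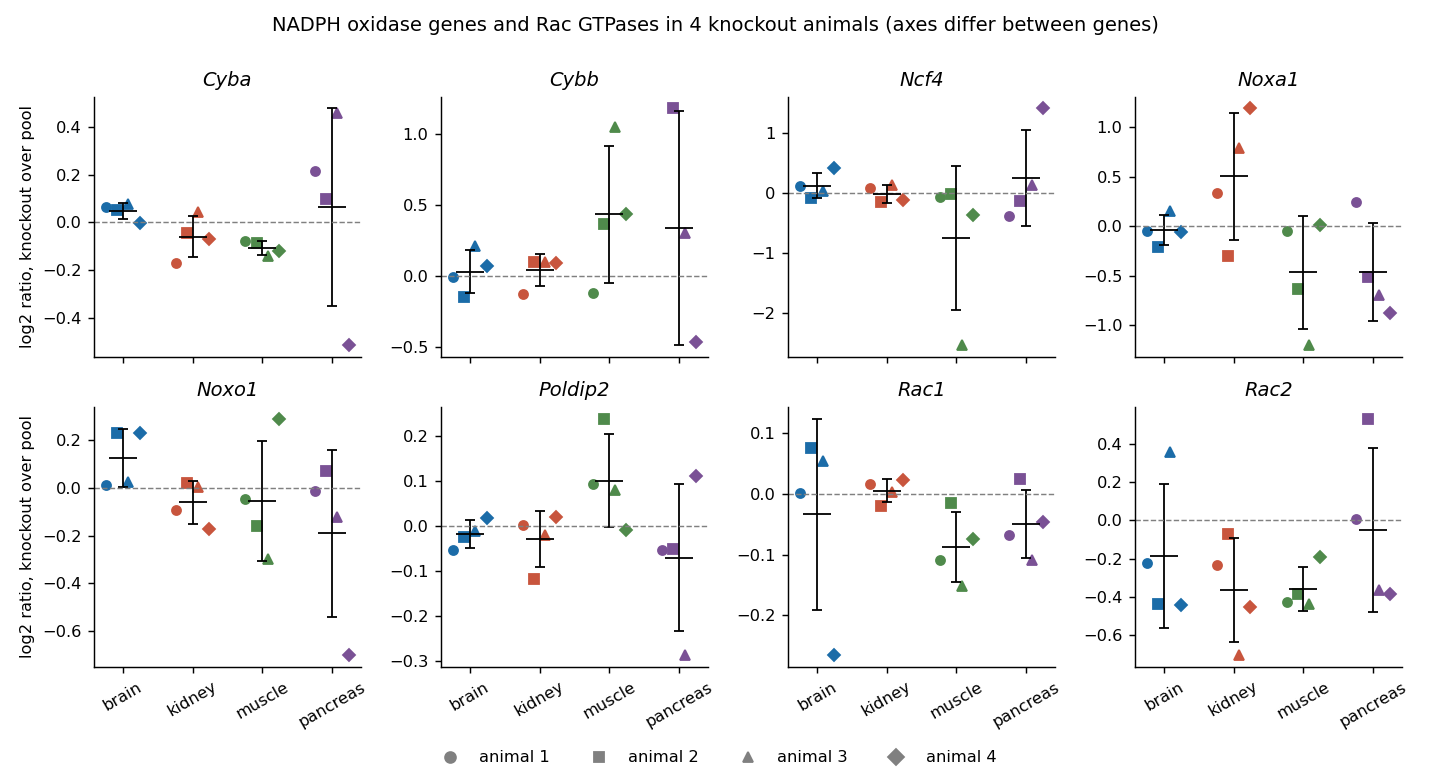
Log2 ratio of knockout over pool (vertical axis, scale differs between panels) for each gene in brain, kidney, muscle and pancreas. Each symbol is 1 animal (mean of its 2 dye-swapped arrays), the long bar is the mean and the whiskers are 1 SD over animals (n = 4, or 3 for Cybb in pancreas). All Rac2 values of kidney and muscle lie below 0, and the Ncf4 value of muscle animal 3 lies at −2.52.

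Cyba, the p22phox subunit on which Nox1, Nox2, Nox3 and Nox4 all depend, stayed close to the pool in most animals. In brain its log2 ratios were 0.06, 0.05, 0.08 and 0.00 in animals 1 to 4, and in kidney −0.17, −0.04, 0.04 and −0.07. In muscle they were −0.08, −0.09, −0.14 and −0.12, all below 0, and in pancreas 0.22, 0.10, 0.46 and −0.51. Pancreas was the widest by far, with animal 4 apart from the other animals. Means were 0.05 ± 0.04 (brain), −0.06 ± 0.05 (kidney), −0.11 ± 0.06 (muscle) and 0.06 ± 0.17 (pancreas) (SE, n = 4 each), and the smallest adjusted p was 0.686 in muscle (limma).

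The narrow muscle values of Cyba are averages of opposed arrays. With the knockout in Cy5 the 4 muscle arrays gave 0.22, 0.24, 0.26 and 0.37. With the knockout in Cy3 they gave −0.37, −0.41, −0.55 and −0.61. Each orientation was thus all on one side of 0, a pattern seen in 5.57% of genes in muscle. In pancreas 3 of the 4 arrays with the knockout in Cy5 lay between 0.97 and 1.27, whereas that of animal 4 was at −0.44. All pancreas arrays with the knockout in Cy3 lay between −0.78 and −0.36.

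Cybb, the electron-carrying subunit of the phagocyte oxidase, had its highest ratios in muscle and pancreas. Muscle animals were at −0.12, 0.36, 1.05 and 0.44, with a mean of 0.43 ± 0.19 (SE, n = 4; limma, adjusted p = 0.662). Pancreas animals 2 to 4 were at 1.18, 0.30 and −0.46, with a mean of 0.34 ± 0.34 (SE, n = 3; limma, adjusted p = 0.991). One animal in each of these tissues was below 0, and single arrays carried much of the height: the array with the knockout in Cy5 read 2.32 for muscle animal 3 and 3.12 for pancreas animal 2. Their Cy3 partners read −0.23 and −0.77. Without animal 3 the muscle mean was 0.23.

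In brain the Cybb values of animals 1 to 4 were 0.00, −0.15, 0.21 and 0.07, and in kidney −0.12, 0.10, 0.10 and 0.09. Both tissues straddled 0, with means of 0.03 ± 0.07 and 0.04 ± 0.05 (SE, n = 4 each; limma, adjusted p = 0.894 and 0.820). Every Cybb array with the knockout in Cy5 lay above 0 in all 4 tissues, with means of 0.38 (brain), 0.37 (kidney), 1.03 (muscle) and 1.26 (pancreas). The arrays with the knockout in Cy3 had means of −0.32, −0.28, −0.16 and −0.79 in the same tissues.

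**Figure D2:**
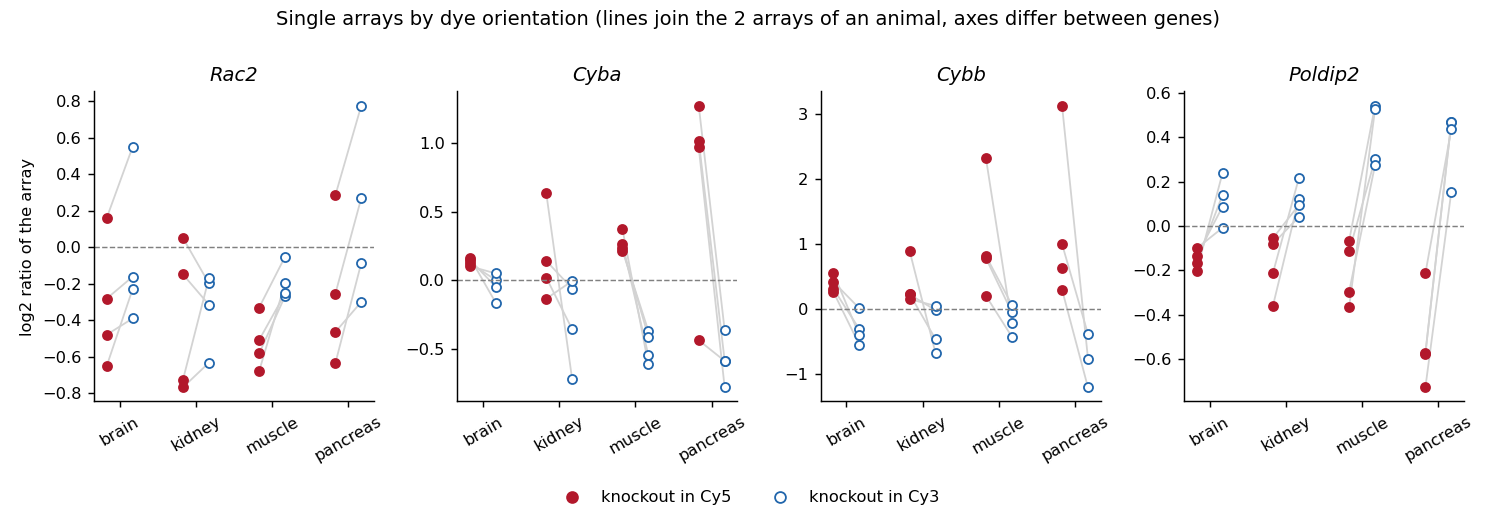
Log2 ratio of single arrays (vertical axis, scale differs between panels) for Rac2, Cyba, Cybb and Poldip2 in 4 tissues. Filled points are arrays with the knockout in Cy5, open points arrays with the knockout in Cy3, and a line joins the 2 arrays of an animal. Cyba and Cybb lie mostly higher with the knockout in Cy5, Poldip2 lies lower, and all 8 Rac2 arrays of muscle lie below 0.

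Among cytosolic subunits Ncf4, the p40phox protein that binds phosphatidylinositol 3-phosphate on phagosomes, had the lowest single value. Muscle animals were at −0.07, −0.02, −2.52 and −0.36, with a mean of −0.74 ± 0.46 (SE, n = 4; limma, adjusted p = 0.700). All were below 0, as for 12% of genes in muscle, but 1 animal set the mean: without animal 3 it was −0.15. That animal's array with the knockout in Cy5 read −4.68 and its array with the knockout in Cy3 read −0.37. In pancreas the values were −0.39, −0.12, 0.13 and 1.41, where animal 4 stood highest through 1 array at 2.92, and the mean was 0.26 ± 0.31 (SE, n = 4; limma, adjusted p = 0.991). Brain (0.12, −0.07, 0.03 and 0.42) and kidney (0.09, −0.15, 0.14 and −0.12) fell on both sides of 0, with means of 0.13 ± 0.09 and −0.01 ± 0.06. By dye orientation, Ncf4 averaged −0.04 (brain), −0.27 (kidney), −1.25 (muscle) and −0.37 (pancreas) with the knockout in Cy5. With the knockout in Cy3 it averaged 0.29, 0.25, −0.23 and 0.89, so muscle alone was below 0 in both.

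Noxa1, the activator protein of Nox1 that is related to p67phox, averaged above the pool in kidney and below it in muscle and pancreas. Kidney animals were at 0.34, −0.30, 0.79 and 1.19, with a mean of 0.50 ± 0.23 (SE, n = 4; limma, adjusted p = 0.570). Muscle animals were at −0.05, −0.63, −1.20 and 0.01, with a mean of −0.47 ± 0.22 (adjusted p = 0.666, limma). Pancreas animals were at 0.25, −0.52, −0.70 and −0.88, with a mean of −0.46 ± 0.20 (limma, adjusted p = 0.991). In each of these tissues 3 of 4 animals shared the sign of the mean. Single animals weighed heavily, since Noxa1 was at 0.28 in kidney without animal 4 and at −0.22 in muscle without animal 3. Brain was narrow, at −0.05, −0.21, 0.15 and −0.06.

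The height of Noxa1 in kidney came from arrays with the knockout in Cy3, which read 0.88, 0.30, 0.94 and 2.28 in animals 1 to 4. The arrays with the knockout in Cy5 read −0.20, −0.91, 0.64 and 0.10, on both sides of 0. In muscle both orientations averaged below 0, at −0.55 (knockout in Cy5) and −0.39 (knockout in Cy3). In pancreas they averaged −0.83 and −0.09, and in brain −0.05 and −0.03. With the Cy3 arrays turned, Noxa1 stands at −0.60 in kidney (limma, adjusted p = 0.304), the opposite side of the pool.

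Noxo1, the organiser protein of Nox1 that is related to p47phox, lay above the pool in all 4 brains, at 0.01, 0.23, 0.02 and 0.23. The mean was 0.12 ± 0.06 (SE, n = 4; limma, adjusted p = 0.773), and 8.86% of all genes lay above 0 in every brain. The high brain values are those of animals 2 and 4 alone. Kidney (−0.09, 0.02, 0.00 and −0.17), muscle (−0.05, −0.16, −0.30 and 0.29) and pancreas (−0.02, 0.07, −0.12 and −0.70) each straddled 0. Their means were −0.06 ± 0.05, −0.05 ± 0.11 and −0.19 ± 0.15 (SE, n = 4 each). By dye orientation Noxo1 averaged 0.04 (brain), 0.02 (kidney), 0.02 (muscle) and −0.23 (pancreas) with the knockout in Cy5, against 0.21, −0.14, −0.13 and −0.15 with the knockout in Cy3.

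Rac2, the Rac GTPase of blood cells, had the smallest p of the 8 genes in both kidney and muscle. Muscle animals were at −0.43, −0.38, −0.44 and −0.19, and the single arrays read −0.58, −0.51, −0.68 and −0.33 where the knockout was in Cy5 and −0.27, −0.25, −0.20 and −0.05 where it was in Cy3. Thus all 8 muscle arrays lay below 0, which held for 0.552% of genes. The mean of −0.36 corresponds to a ratio of 0.780 (95% interval 0.690 to 0.881), and the adjusted p from limma was 0.538 (unadjusted p = 0.00313, limma). With 4 animals an exact two-sided sign-flip test cannot go below p = 0.125.

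Kidney animals were at −0.23, −0.07, −0.70 and −0.45 for Rac2. All lay below 0, as for 9.85% of genes in kidney, and 7 of 8 arrays did. The mean was −0.36 ± 0.10 (SE, n = 4), a ratio of 0.777 (95% interval 0.653 to 0.925; limma, unadjusted p = 0.0121, adjusted p = 0.511). The means of the dye orientations were close in kidney, at −0.40 for the knockout in Cy5 and −0.33 for the knockout in Cy3. Their gap was imprecise, at −0.07 ± 0.25 (SE). Single animals differed in opposite directions: animal 4 read −0.73 (Cy5) and −0.17 (Cy3), animal 2 read 0.05 and −0.20. Brain animals were at −0.22, −0.44, 0.36 and −0.44, with animal 3 above the pool on both arrays. Pancreas animals were at 0.01, 0.53, −0.36 and −0.38, with means of −0.19 ± 0.15 in brain and −0.05 ± 0.18 in pancreas (SE, n = 4 each).

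These Rac2 values depend on reading all ratios in the same direction. If the ratios of arrays with the knockout in Cy3 had not been turned by the authors, and are turned here, Rac2 stands at −0.17 in muscle (limma, adjusted p = 0.121) and at −0.03 in kidney (limma, adjusted p = 0.814).

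Rac1, the widely expressed Rac, was closest to the pool in kidney, where animals were at 0.02, −0.02, 0.00 and 0.02 and the whole range was 0.04. These kidney values average opposed arrays: all 4 with the knockout in Cy5 lay between 0.06 and 0.33, and all 4 with the knockout in Cy3 between −0.37 and −0.06, a pattern seen in 2.94% of genes in kidney. Muscle animals were at −0.11, −0.01, −0.15 and −0.08, all below 0, with a mean of −0.09 ± 0.06 (SE, n = 4; limma, adjusted p = 0.704). Pancreas animals were at −0.07, 0.02, −0.11 and −0.05. In brain 3 animals were at 0.00, 0.08 and 0.05, and animal 4 was at −0.27. The 95% intervals of the Rac1 means ran from −0.22 to 0.15 in brain, from −0.08 to 0.09 in kidney, from −0.24 to 0.06 in muscle and from −0.23 to 0.13 in pancreas. With the knockout in Cy5 Rac1 averaged 0.10 (brain), 0.19 (kidney), 0.05 (muscle) and 0.13 (pancreas), and with the knockout in Cy3 −0.17, −0.18, −0.23 and −0.23.

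Poldip2 also averaged near the pool. Brain animals were at −0.05, −0.02, −0.01 and 0.02, kidney animals at 0.00, −0.12, −0.02 and 0.02. Muscle animals were at 0.09, 0.24, 0.08 and −0.01, and pancreas animals at −0.05, −0.05, −0.29 and 0.11. Means were −0.02 ± 0.04, −0.03 ± 0.04, 0.10 ± 0.07 and −0.07 ± 0.09 in these tissues (SE, n = 4 each; smallest adjusted p 0.701 in muscle, limma). The single arrays were far from 0 in opposite directions, with means of −0.15, −0.18, −0.21 and −0.52 for the knockout in Cy5 and 0.12, 0.12, 0.41 and 0.38 for the knockout in Cy3. In kidney, muscle and pancreas every array with the knockout in Cy5 was below 0 and every array with the knockout in Cy3 above it. That pattern held for 3.24% of all genes in kidney, for 7.23% in muscle and for 12.3% in pancreas.

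The gap between dye orientations was tested with a dye term in a fit of the 8 arrays of a tissue (limma, with the animal as a random block). It passed for 4 of the 32 combinations. Cyba was higher with the knockout in Cy5 by 0.76 ± 0.10 in muscle (adjusted p = 0.00688, limma) and by 1.29 ± 0.36 in pancreas (adjusted p = 0.0368, limma). Poldip2 was lower with the knockout in Cy5, at −0.62 ± 0.11 in muscle (limma, adjusted p = 0.0168) and −0.90 ± 0.16 in pancreas (limma, adjusted p = 0.00889). Among all genes this gap passed for 0% (brain), 0.0118% (kidney), 13.6% (muscle) and 25.9% (pancreas). Whether the gap belongs to the dyes or to ratios left unturned was not tested.

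The size of the gap varied between probes of the same gene. For Rac1, probe 18765 averaged 0.58 higher with the knockout in Cy5 over the 4 tissues, with tissue means between 0.30 and 0.84. Probe 20042 averaged only 0.07, between −0.12 and 0.25. The 3 Poldip2 probes were all lower with the knockout in Cy5, with average gaps of −0.38 (probe 15840), −0.67 (probe 15981) and −0.52 (probe 923). After the 2 orientations were averaged, Poldip2 probe 15840 stood at 0.33 ± 0.09 in muscle and above 0 in all 4 animals (limma, adjusted p = 0.565), whereas probes 15981 and 923 stood at 0.02 ± 0.07 and −0.05 ± 0.07. Rac1 probe 18765 was at 0.12 ± 0.05 in brain, above 0 in all 4 animals, against −0.19 ± 0.12 for probe 20042 (limma, adjusted p = 0.772 for both).

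**Figure D3:**
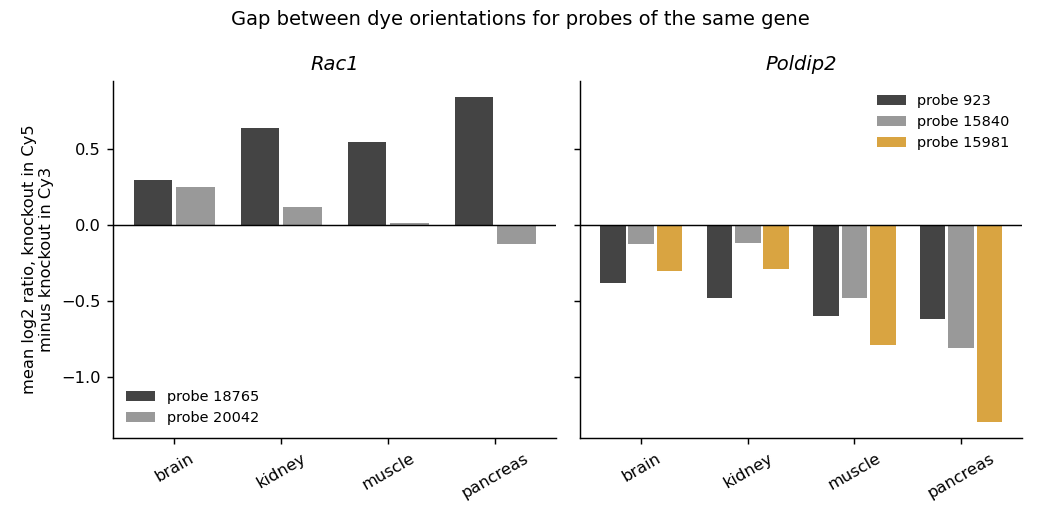
Mean log2 ratio with the knockout in Cy5 minus that with the knockout in Cy3 (vertical axis, from 4 arrays of each orientation) for the 2 Rac1 probes and the 3 Poldip2 probes in each tissue. The gap of Rac1 probe 18765 lies between 0.30 and 0.84, that of probe 20042 between −0.12 and 0.25, and all Poldip2 gaps lie below 0, down to −1.29 for probe 15981 in pancreas.

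The tissues were then compared with each other. A moderated F test over the 4 tissues passed for none of the 8 genes, against 0.0246% of 16257 genes tested. Noxa1 had the smallest p (limma, F test, unadjusted p = 0.0307, adjusted p = 0.510), and it alone was under 0.05 unadjusted, as were 8.68% of all genes. Of the 48 combinations of gene and pair of tissues, 0 passed the adjusted threshold. Over all genes the share called was 0.461% for brain minus muscle, 0.0123% for kidney minus muscle, 0.578% for muscle minus pancreas and 0% for the other pairs.

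At an unadjusted p under 0.05, limma gave 2 of the 48, both of Noxa1. Kidney minus muscle was 0.97 ± 0.33 (95% interval 0.27 to 1.67; limma, adjusted p = 0.489) and kidney minus pancreas 0.96 ± 0.33 (95% interval 0.26 to 1.66; limma, adjusted p = 0.749). Over all genes the unadjusted share was 6.23% for kidney minus muscle and 5.67% for kidney minus pancreas. It was 2.92% for brain minus kidney, 9.23% for brain minus muscle, 8.29% for brain minus pancreas and 12.8% for muscle minus pancreas, where none of the 8 genes was under 0.05. The order of Noxa1 was kidney, brain, pancreas, muscle, and no neighbours in it differed past the threshold. Brain minus kidney was −0.54 ± 0.33, brain minus pancreas 0.42 ± 0.33 and muscle minus pancreas −0.01 ± 0.33. Animals of kidney and muscle overlapped, since kidney animal 2 at −0.30 lay below muscle animals 1 and 4. With the Cy3 arrays turned, the 2 differences became −0.52 and −0.23, so their direction depends on how the ratios are read. Without animal 3 kidney minus muscle was 0.63, and without animal 4 kidney minus pancreas was 0.60.

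For Rac2 the order was pancreas, brain, muscle, kidney, from −0.05 down to −0.36. The largest difference, kidney minus pancreas, was −0.31 ± 0.21 with a 95% interval from −0.77 to 0.14 (limma, adjusted p = 0.924). So the ratios of Rac2 in kidney and muscle were not shown to differ from those in brain and pancreas. Cyba in brain and muscle was the only pair of tissues whose animals did not overlap, with 0.15 ± 0.15 between them (brain minus muscle, adjusted p = 0.780, limma). That SE pools the spread of all 4 tissues. The SD of Cyba was 0.41 in pancreas but 0.03 in brain and 0.03 in muscle. The share of all genes without overlap was 7.66% in brain and muscle. In the other pairs, where all 8 genes overlapped, it was 5.86% (brain and kidney), 4.15% (brain and pancreas), 6.91% (kidney and muscle), 3.75% (kidney and pancreas) and 4.74% (muscle and pancreas). For Cyba the order was pancreas, brain, kidney, muscle, for Cybb muscle, pancreas, kidney, brain, for Ncf4 pancreas, brain, kidney, muscle, and for Noxo1 brain, muscle, kidney, pancreas. None of these orders, nor those of Rac1 and Poldip2, rests on a difference past the threshold. Rac1 and Poldip2 tissue means lay within 0.09 and 0.17 of each other, in the orders kidney, brain, pancreas, muscle and muscle, brain, kidney, pancreas. The differences in Ncf4 were the least precise, where muscle minus pancreas had a 95% interval from −2.02 to 0.02 (limma, adjusted p = 0.400) and stood at −0.45 without animal 3.

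These orders also depend on how the ratios are read. With the Cy3 arrays turned, Rac2 stands at −0.03 (kidney), −0.13 (brain), −0.17 (muscle) and −0.22 (pancreas), the highest now being kidney. Cyba stands at 0.64 (pancreas), 0.38 (muscle), 0.23 (kidney) and 0.09 (brain), with muscle above brain. Noxo1 in brain and Ncf4 in pancreas, highest as deposited, become the lowest of their tissues at −0.09 and −0.63. Poldip2 runs from −0.13 in brain through −0.15 in kidney and −0.31 in muscle to −0.45 in pancreas. Rac1 lies between 0.14 (brain) and 0.19 (kidney), and Cybb between 0.33 (kidney) and 1.13 (pancreas).

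**Figure D4:**
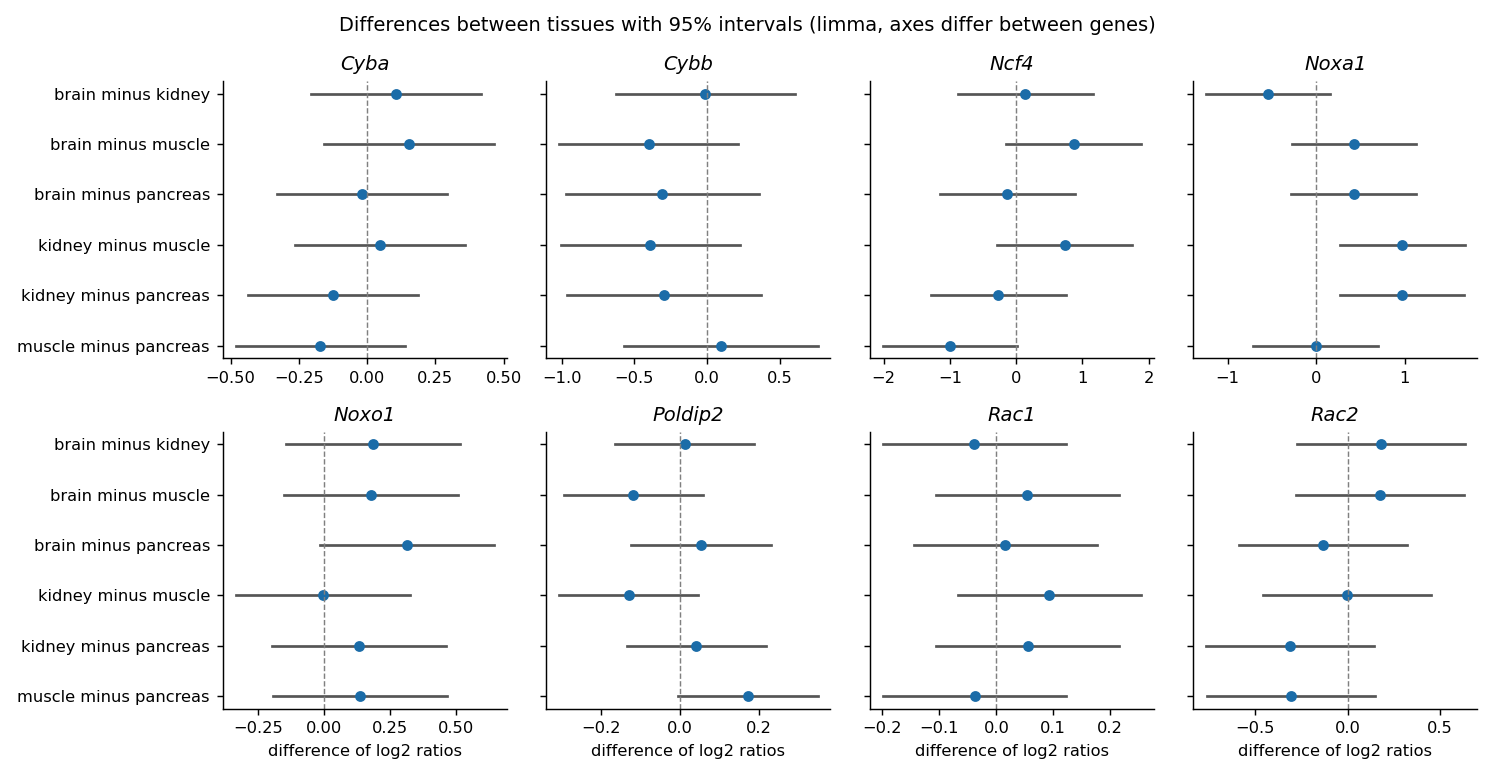
Difference in log2 ratio between 2 tissues (horizontal axis, scale differs between panels) for each gene, with 95% intervals from limma as lines. Only the 2 Noxa1 intervals of kidney minus muscle and kidney minus pancreas exclude 0, before adjustment over all genes.

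Because the same animals gave all tissues, each gene was also averaged over the 4 tissues of an animal and tested against the pool. None of the 8 genes passed the adjusted threshold, as for 0% of 16122 genes, and 2 had an unadjusted p under 0.05, as had 5.19% of genes. Rac2 averaged −0.22, −0.09, −0.29 and −0.37 in animals 1 to 4. All 4 lay below the pool, with a mean of −0.24 ± 0.05 (SE, n = 4; limma, unadjusted p = 0.00486, adjusted p = 0.868). Cybb averaged 0.37, 0.41 and 0.04 in animals 2 to 4, all above the pool, with a mean of 0.27 ± 0.09 (SE, n = 3; limma, unadjusted p = 0.0323, adjusted p = 0.868). The means of the other 6 genes lay between −0.12 (Noxa1) and 0.00 (Poldip2).

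Read by dye orientation, these averages over tissues differed between genes. Rac2 was below 0 in both, at −0.38 over arrays with the knockout in Cy5 (limma, adjusted p = 0.0296) and −0.10 over arrays with the knockout in Cy3 (limma, adjusted p = 0.207). In pancreas, though, its arrays with the knockout in Cy3 averaged 0.17. Cybb was at 0.76 with the knockout in Cy5 (limma, adjusted p = 0.0365) and at −0.35 with the knockout in Cy3 (limma, adjusted p = 0.0677), so its sign depends on the orientation. Poldip2 was at −0.26 and 0.26 and passed in both (limma, adjusted p = 0.0237 and 0.0298). Noxa1 at −0.38 with the knockout in Cy5 (limma, adjusted p = 0.0277) and Cyba at −0.35 with the knockout in Cy3 (limma, adjusted p = 0.0287) passed too. Of all genes 21.2% passed with the knockout in Cy5 alone and 14.5% with the knockout in Cy3 alone.

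If the authors had left the ratios of the Cy3 arrays unturned, the averages over tissues would instead be 0.33 for Cyba, 0.63 for Cybb, 0.16 for Rac1, −0.14 for Rac2, −0.39 for Ncf4, −0.26 for Noxa1 and −0.26 for Poldip2. All 7 would pass (limma, adjusted p between 0.00607 for Poldip2 and 0.0374 for Rac2), and Noxo1 at 0.01 would not. That reading calls 37.8% of all genes. Within tissues it calls 1 combination, Poldip2 in pancreas at −0.45 (limma, adjusted p = 0.0360, among 14.6% of genes), and between tissues 1, Poldip2 in brain minus pancreas at 0.32 (limma, adjusted p = 0.0263, among 9.29% of genes). The averages of Rac2, Cybb, Ncf4 and Noxa1 have the same sign in both readings, as has that of Poldip2, which stood at −0.004 as deposited. Cyba and Rac1 stood at −0.01 and −0.04 as deposited and change sign. Both readings combine the same arrays, so a shared sign is no separate support.

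Genes that work with the oxidases and with Rac were described through 5 lists, the last of leukocyte markers. In each tissue limma called 0 genes of every list. In the list of other oxidase subunits and regulators, 12 of 24 genes were measured, and those above 0 numbered 7 (brain), 7 (kidney), 4 (muscle) and 6 (pancreas). Over all genes the share above 0 was 53.4% (brain), 51.5% (kidney), 41.6% (muscle) and 50.4% (pancreas). The smallest p in brain belonged to Prkcz, the atypical protein kinase C zeta, at −0.26 ± 0.09 and below 0 in all 4 animals, as were 6.73% of genes in brain (SE, n = 4; limma, adjusted p = 0.773). Rap1b, a small GTPase that like Rap1a is related to Ras, had the smallest p in both kidney (−0.14 ± 0.07) and pancreas (−0.15 ± 0.07), below 0 in all 4 animals of each, as were 5.15% of genes in pancreas. Sh3pxd2b, the Tks4 scaffold protein of podosomes, was at 0.16 ± 0.08 in muscle.

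Of the exchange factors that load Rac with GTP, 15 of 30 were measured, and those above 0 numbered 10 (brain), 5 (kidney), 3 (muscle) and 6 (pancreas). The share of all genes above 0 in muscle was 41.6%. Vav2 was at 0.44 ± 0.11 in brain and above 0 on all 8 arrays (SE, n = 4; limma, adjusted p = 0.773), which held for 0.404% of genes in brain. It was at −0.96 ± 0.76 in kidney and −0.35 ± 1.48 in pancreas. Sos1, named after its value was seen, was as far from the pool in brain on the other side, at −0.48 ± 0.12 (SE, n = 3). Of the proteins that restrain Rac, 15 of 24 were measured, and those above 0 numbered 10 (brain), 10 (kidney), 10 (muscle) and 8 (pancreas). Arhgdib, a dissociation inhibitor found mainly in blood cells, was at 0.26 ± 0.12 in brain and 0.12 ± 0.04 in kidney, above 0 on 7 of 8 arrays in each (limma, adjusted p = 0.773 and 0.525). Cyrib, which binds active Rac1, was at −0.23 ± 0.08 in muscle (SE, n = 3; limma, adjusted p = 0.661).

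Of the proteins on which active Rac acts, 21 of 30 were measured, 20 of them in pancreas. Those above 0 numbered 9 (brain), 12 (kidney), 12 (muscle) and 7 (pancreas). Pak4, a p21-activated kinase, was above 0 in all 4 animals of kidney and of muscle, at 0.15 ± 0.05 and 0.19 ± 0.06 (SE, n = 4 each; limma, adjusted p = 0.517 and 0.628). Every animal was above 0 for 10.1% of genes in kidney and 6.85% in muscle. Medians of the 5 lists stayed between −0.04 and 0.03 in every tissue, against −0.02 to 0.01 over all genes.

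**Figure D5:**
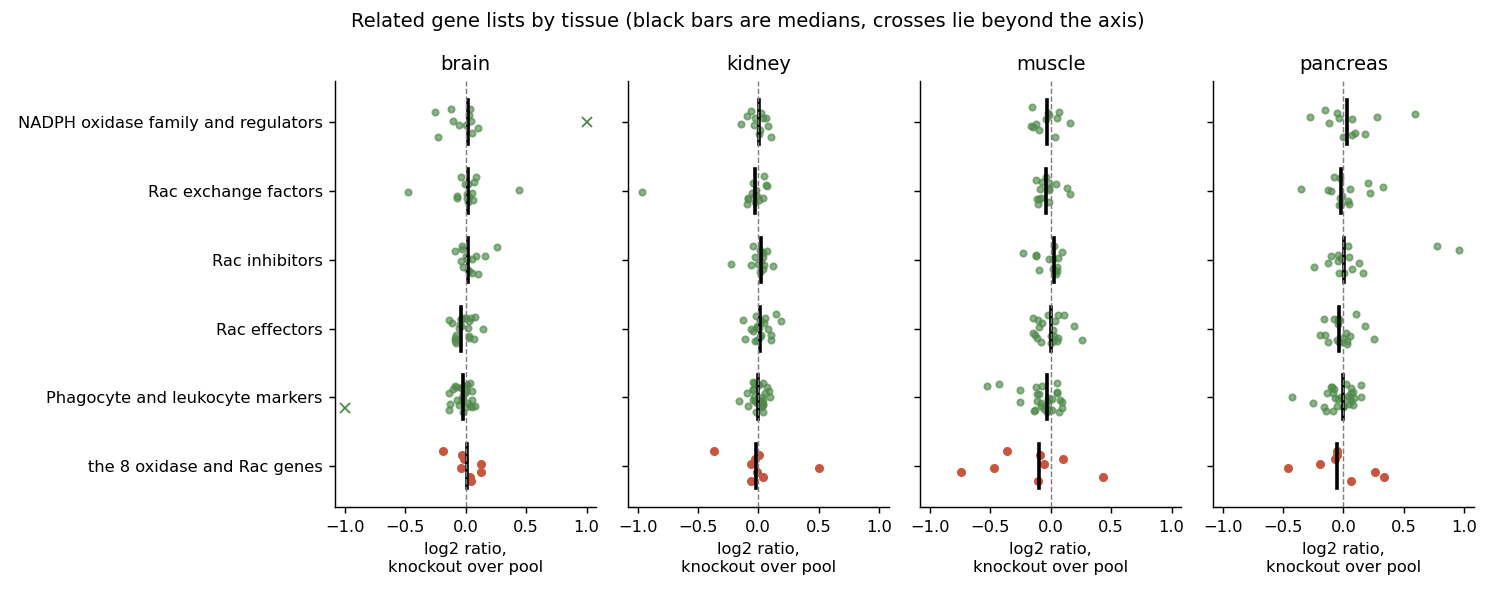
Mean log2 ratio of knockout over pool (horizontal axis) for the measured genes of 5 lists and, in the bottom row, the 8 oxidase and Rac genes, in 4 tissues. Each point is 1 gene, black bars are medians and the crosses are genes beyond the axis (Mapk14 and Cd4 in brain). List medians lie close to 0, between −0.04 and 0.03.

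Cybb, Ncf4 and Rac2 are transcripts of phagocytes and other leukocytes, so markers of these cells were read beside them. Of 42 listed markers 30 were measured (29 in pancreas). In muscle 21 of 30 lay below 0, against 58.4% of all genes, with a median of −0.03, and the mean of the markers (values over 8 in size left out) lay between −0.10 and −0.05 in the 4 animals. Ctss, the lysosomal protease cathepsin S, was at −0.53 ± 0.08 there and negative for every animal, though on 4 of 8 arrays alone (SE, n = 4; limma, adjusted p = 0.538). It was 1 of 3 among the 30 markers with an unadjusted p under 0.05 in muscle (limma), all lower, as had 7.29% of all genes in either direction. The others, named after their values were seen, were Ptprc, the leukocyte phosphatase CD45, at −0.43 ± 0.14 and the integrin chain Itgb2 at −0.26 ± 0.09. Above 0 in muscle lay 9 of the 30 markers, the highest being Ltf and Cd3e, both at 0.09. In kidney Ctss, Ptprc and Itgb2 stood at 0.03, 0.01 and 0.04. In kidney, where Rac2 was as low as in muscle, 15 of 30 lay below 0 and the marker mean lay between −0.02 and 0.02. Brain had 19 of 30 below 0 and pancreas 15 of 29. Over the 16 combinations of animal and tissue, Rac2 and the marker mean had r = 0.18 and a rank correlation of −0.01, points that share arrays and animals. The part of leukocyte number in the Rac2 values was not tested.

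Among the 8 genes themselves, Cyba and Poldip2 ran opposite to each other. They had r = −0.72 over the 16 combinations and r = −0.89 over the 32 single arrays, where their gaps between dye orientations were opposed. Pancreas held wide values of both. Its animals 3 and 4 were at 0.46 and −0.51 for Cyba, and at −0.29 and 0.11 for Poldip2. Cybb and Ncf4 were at r = −0.69 over 15 combinations and r = −0.67 over 31 arrays. Cyba and Cybb were at r = 0.31 over 15 combinations and at r = 0.73 over 31 arrays, where both move with the dye orientation. All of these share the same arrays and are descriptions. Of 8088 other named genes with values throughout, those most like Cyba were Ssbp4 (r = 0.93) and Rab12 (r = 0.90), those most like Rac2 were Lsm3 (r = 0.79) and C2cd2 (r = 0.76), and those most like Poldip2 were Clic3 (r = 0.89) and Ppp2r3c (r = 0.86). For Noxa1 they were Zfp629 (r = 0.81) and Iqce (r = 0.71), for Noxo1 Pdgfrb (r = 0.84) and Tcf7l1 (r = 0.81), and for Rac1 Nthl1 (r = 0.86) and Stmn4 (r = 0.84). The likeness of Ncf4 to 1700029I15Rik had r = 0.92 but a rank correlation of only 0.19, whereas that to Smim5 had r = 0.91 and a rank correlation of 0.59. Rank correlations were also low for C2cd2 with Rac2 (0.48) and Tcf7l1 with Noxo1 (0.47), and lay between 0.59 and 0.87 for the rest. Each r is taken over 16 values. These genes were picked as the highest of 8088, so their r is high in part by that selection. Whether it exceeds the r of unrelated genes was not tested.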

How the data were processed

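Two-colour cDNA arrays compared RNA of 4 Nox4 knockout mice with pooled wild-type RNA in brain, kidney, muscle and pancreas, on 32 arrays. Reverse transcription started from 20 µg of total RNA and dyes were coupled indirectly, per the labels' protocols. The authors deposited log2 ratios, with 1 value for each probe on each array. Base 2 was inferred from the values, and the background correction, the normalisation, the filters and the direction have no statement in the labels or headers, so they are not given here. Signs were kept as deposited, and turning the arrays with the knockout in Cy3 is an alternative. Whether the authors had turned them is not settled. Values over 8 in size (1844 of 655162) stood apart from all others, and the 8 genes had 0 of them. All of them were positive where the knockout was in Cy5 and negative where it was in Cy3.

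The probe annotation named 12771 of 20794 probes with 1 symbol each, 8023 probes carried none, and all 9030 symbols matched the RefSeq table (GRCm38.p6). Probes of a symbol were averaged, then the 2 arrays of an animal (both required). Limma (version 3.58.1, R 4.3.3; lmFit, eBayes, two-sided, checked on simulated data) was fitted to all genes with at least 3 animals, and p-values were Benjamini-Hochberg adjusted over all of them, with a threshold of 0.05. SE is limma's moderated value. Wild-type RNA enters as 1 pooled sample, so wild-type animals contribute no spread of their own. Differences between tissues came from 1 fit of all tissues without an animal block, with 12 residual degrees of freedom. That fit gives a gene 1 spread for all tissues, although spread differed between them. The median SD over all genes was 0.13 (brain), 0.10 (kidney), 0.17 (muscle) and 0.22 (pancreas). The animal numbers pair the tissues because each animal gave all of them, and deviations of the same animal correlated between tissues at r between −0.07 and 0.09. Precision is limited by the number of arrays.

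Named genes are the 8 genes in every tissue, the gene of smallest p of each list in each tissue (the text gives some of these), and the 2 genes most correlated with each of the 7 that had all 16 values (not Cybb). Genes outside this rule are marked where they stand. The 8 genes and the lists were chosen with earlier results of these data known. Alternatives were centred or scaled arrays, large values as missing, turned signs, each dye orientation alone, other probe and array rules, robust moderation, each animal left out, an 8-array fit, a shared spread, the animal as a block and other sets of tissues. The result of 1 further list is not reported here.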

Additional observations from a re-analysis of the deposited data

Results flagged for a closer look

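Of the 31 groups of 4 animals (8 genes in 4 tissues, without Cybb in pancreas), 2 held an animal far from the others by Dixon's criterion. Chance alone gives such an animal in about 1 in 20 groups. Ncf4 in muscle animal 3 was at −2.52, against −0.36 to −0.02 in the other animals. Cybb in kidney animal 1 was at −0.12, against 0.09 to 0.10 in the others, whose closeness makes a small departure stand out.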

How the results depend on the processing

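The counts of 0 genes past the adjusted threshold, within tissues, between tissues and over the mean of tissues, changed only with the treatment of dye orientation. With the Cy3 arrays turned, limma called 1 combination within tissues (Poldip2 in pancreas), 1 between tissues (Poldip2 in brain minus pancreas) and 7 of 8 genes over the mean of tissues, all but Noxo1. Arrays with the knockout in Cy5 alone gave 4 over the mean of tissues (Cybb, Noxa1, Poldip2 and Rac2), and arrays with the knockout in Cy3 alone gave 2 (Cyba at −0.35 and Poldip2 at 0.26). The cause was not tested. With the Cy3 arrays turned, 12 of the 32 values within tissues changed sign. Of the same 32 values, 11 changed sign with the knockout in Cy5 alone and 12 with the knockout in Cy3 alone. In each of these 2 settings 17 values moved over 1 SD. With array centring, large values as missing, robust moderation, 1 array enough or the median of probes, 0 changed sign, and with scaled arrays 1 did. Leaving out each animal in turn changed 0 to 5 signs. With the animal as a replicate block, limma again called 0 of the 48 differences between tissues. Over all genes the block lowered the calls from 75 to 0 for brain minus muscle and from 2 to 0 for kidney minus muscle. For muscle minus pancreas they fell from 94 to 24. Over its 14 alternatives other than turned signs, Rac2 ranged from −0.53 to −0.19 in muscle (limma, adjusted p 0.0805 to 0.803) and from −0.66 to −0.25 in kidney (limma, adjusted p 0.253 to 1). The 0.0805 came from the 8-array fit. Its block correlation in muscle was 0.08, so the 2 arrays of an animal counted almost as separate values. At an unadjusted p under 0.05, limma gave 2 to 11 combinations within tissues and 0 to 13 between tissues over the settings other than turned signs, and 16 and 7 with turned signs. Within tissues the counts over all genes rose as well with turned signs or 1 dye orientation alone. Turned signs gave 2398 of 16729 genes (brain), 2740 of 16825 (kidney), 4814 of 16662 (muscle) and 6092 of 16377 (pancreas). Between tissues they gave 140 (brain minus kidney) to 4661 (brain minus pancreas) of 16257, against 475 and 1347 as deposited. Arrays with the knockout in Cy5 alone gave 2546 of 16872 (brain) to 4607 of 16692 (pancreas) within tissues. Between tissues those arrays gave 258 (brain minus kidney) to 4064 (brain minus pancreas) of 16542. Arrays with the knockout in Cy3 alone gave 1134 of 16853 (brain) to 3813 of 16696 (pancreas). Between tissues the count was 311 (brain minus kidney) to 2722 (brain minus pancreas) of 16514. Signal over background was not used here, so low signals cannot be told from high ones.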
